A study of Mus musculus with 10 samples.

Results

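The genes described here are 46 genes of DNA replication and mitosis, measured in whole mouse liver with and without *Ndrg3* in hepatocytes. They were taken by gene symbol from the 24052 rows of the count files, and all 46 symbols were found. Of these, 18 act around DNA synthesis (12 at the replication fork, 4 in nucleotide supply, and the cyclin E genes *Ccne1* and *Ccne2*), 4 encode transcription factors of the cell cycle, and 24 act in G2 and mitosis (11 kinases, cyclins and parts of the anaphase-promoting machinery, 5 chromosome and centromere genes, 8 spindle and cytokinesis genes). RNA was sequenced from the livers of 5 wild-type (WT) mice and 5 Ndrg3 LKO mice of the C57BL/6 background, all fed ad libitum, with 1 library per liver. In Ndrg3 LKO mice exon 4 of *Ndrg3* is floxed and deleted by Cre recombinase under the albumin promoter, so that hepatocytes, and not every cell of the liver, lose the exon. The labels call the control mice wild type and the methods call them littermates. The last cross in the methods joined Ndrg3 f/+; Alb-Cre and Ndrg3 f/f parents, whose pups each inherit at least 1 floxed allele, and the alleles of the single WT mice, floxed or Cre, are not given in the sources used here. The line was backcrossed to C57BL/6N, per the methods. The methods state an age of 8 to 10 weeks for these livers, and a legend to the metabolite data of the same groups states 10 to 12 weeks. Mice were male unless the methods state otherwise, and no sex is given for these livers.

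Cell division runs through a fixed order of events. In G1, cyclin D with CDK4 or CDK6 and then cyclin E with CDK2 phosphorylate the retinoblastoma family, which releases E2F factors and the genes of DNA synthesis. In G2, a later wave of genes for mitotic kinases, spindle proteins and the anaphase-promoting complex is switched on, with B-MYB and FOXM1 acting through promoters that carry CCAAT boxes and a cell cycle genes homology region (CHR). Hepatocytes of adult mice are mostly quiescent and re-enter the cycle after injury or tissue loss, and many of them pass through S phase and become polyploid without dividing.

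Between 20872262 and 24747870 reads were counted on genes in the WT livers and between 23474693 and 30450057 in the Ndrg3 LKO livers. Expression is given as CPM, the usual depth-scaled count of a gene, with library sizes adjusted by TMM, a scaling that sets the bulk of the genes level between libraries. On this scale 3 counts, taken as the smallest signal a library can show, correspond to 0.0727 to 0.179 CPM. *Ndrg3* itself, at chr2:156753081-156817792 of mm9, was measured at 17.8, 17.7, 15.9, 19.1 and 21.9 CPM in WT replicates 1 to 5 and at 7.07, 8.05, 9.16, 7.78 and 8.25 CPM in Ndrg3 LKO replicates 1 to 5. Every Ndrg3 LKO liver lay below every WT liver, with a log2 fold change of -1.20 (SE 0.13, adjusted p = 3.68e-05 by edgeR's quasi-likelihood test). Counts were made over the gene as a whole and do not separate the deleted exon from the rest.

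Ndrg3 LKO replicate 5 stood apart from the other 4 Ndrg3 LKO livers. On the first principal component, which held 68.7% of the variance, it lay at 14.1, the other Ndrg3 LKO livers between 51.1 and 56.6, and the WT livers between -49.9 and -43.1. The 20 most abundant genes took 26.6% of its counts, as against 16.3 to 17.3% in the other Ndrg3 LKO livers and 26.2 to 28% in WT. Its *Ndrg3* level was inside the range of the other Ndrg3 LKO livers. Results are therefore given with and without it. The paper's legends for its metabolite and RNA data give 5 wild-type and 4 Ndrg3 LKO livers, and do not name a liver left out. In bulk tissue, a lower level cannot be told apart between fewer cells of a type and less RNA per cell, and a higher level cannot be told apart between more cells and more RNA per cell.

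Replication and mitosis genes were higher in Ndrg3 LKO livers in most cases, and more so for mitosis than for DNA synthesis. Of the 46 genes, 36 reached 1 CPM by library size in at least 5 livers and were tested. The filter on low counts used CPM by library size alone, without the TMM adjustment of the values printed here. On the printed scale *Uhrf1*, *Ccnb1*, *Bub1b*, *Nusap1* and *Anln*, 5 of the 36, reach 1 CPM in fewer than 5 livers. Of the 36 genes tested, 28 were higher in Ndrg3 LKO, 1 was lower (*Tk1*, encoding thymidine kinase) and 7 did not pass the test at an adjusted p of 0.05 by edgeR. Among all 11208 genes tested, 48.5% were called, 25.6% higher and 23% lower. The median log2 fold change was 2.29 over the 36 genes and 0.031 over all genes tested.

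The filter bears on these counts. By library size, 13 of the 36 genes reached 1 CPM in no WT liver and passed only through the Ndrg3 LKO livers, and all 13 were among those called higher. Of the 15 genes that reached 1 CPM in every WT liver, 8 were higher and 1 was lower, as against 21.9% and 25.3% of the 10093 genes that did so. With no filter on low counts all 46 genes were tested, and 36 were higher, 0 were lower and 10 did not pass, at a median log2 fold change of 2.57, beside 34.5% called, 18.4% higher and 16.1% lower, and a median of 0.11, among 17746 genes. In 28 of the 46 genes every Ndrg3 LKO liver lay above every WT liver, and in 0 of them below, as against 12.5% and 10.9% of all genes without the filter. Without Ndrg3 LKO replicate 5, 37 genes were tested, of which 29 were higher and 1 was lower (28.4% and 27.1% of all genes, 55.6% together), at a median log2 fold change of 2.07. The gene gained in that fit was *Mybl1*, which reached 1 CPM in no WT liver and so had to differ. Scaled by library size alone, 34 of the 36 were higher and 1 was lower, but so were 51.9% and 9.02% of all genes (61% together).

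**Figure D1:**
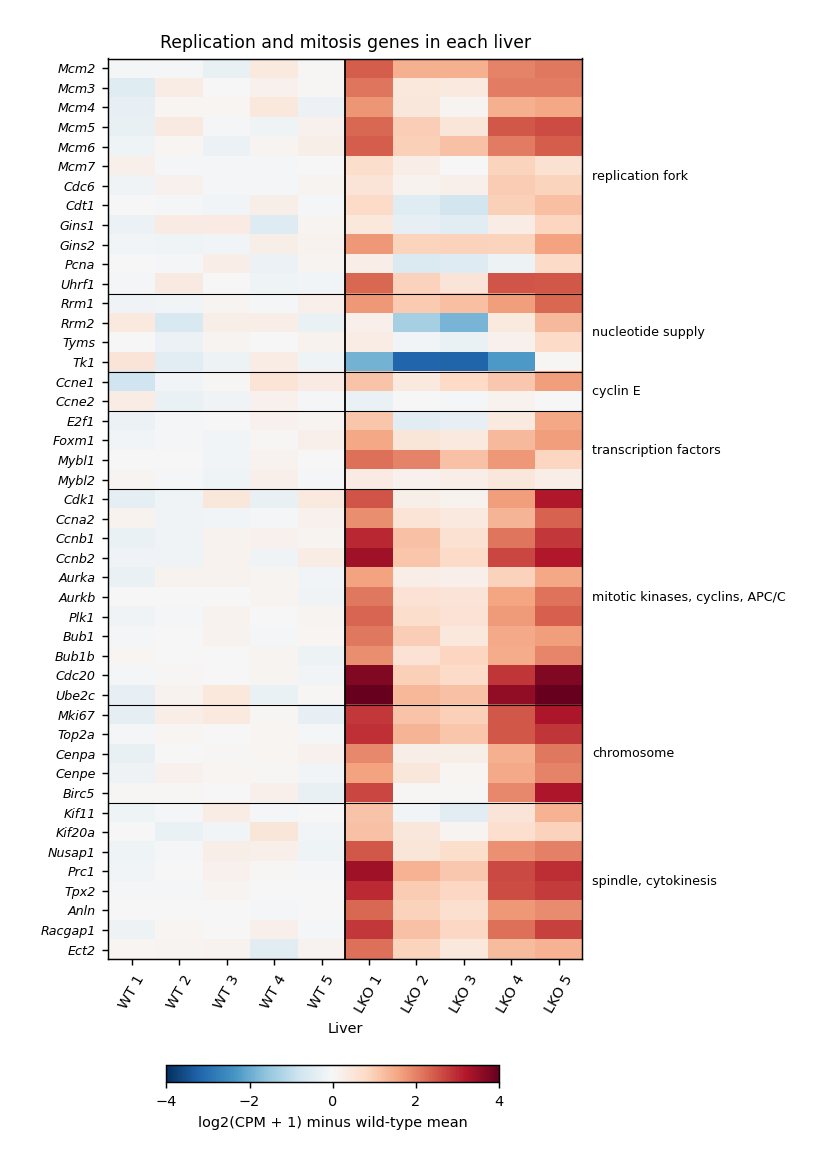
Heat map of the 46 genes (rows, by role) in the 10 livers (columns), coloured by log2(CPM + 1) minus the mean of the 5 WT livers, from -4 (blue) to 4 (red). The Ndrg3 LKO columns are red for most genes, palest in replicates 2 and 3, and *Tk1* is blue in Ndrg3 LKO replicates 1 to 4.

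The genes of the replication fork contain the MCM2-7 helicase, which unwinds DNA at origins. *Mcm2* (chr6:88833469-88848774) measured 1.35, 1.27, 0.947, 2.16 and 1.49 CPM in WT and 12, 5.45, 5.53, 8.55 and 9.47 CPM in Ndrg3 LKO. All Ndrg3 LKO livers lay above all WT livers, at a log2 fold change of 2.49 (SE 0.29, adjusted p = 5.58e-05). *Mcm5*, another helicase subunit (chr8:77633427-77652338), measured 0.617, 1.56, 0.947, 0.781 and 1.25 CPM in WT and 8.80, 2.93, 1.83, 10.3 and 11.3 CPM in Ndrg3 LKO. The groups did not overlap, but Ndrg3 LKO replicate 3 was close to the highest WT liver, at a log2 fold change of 2.76 (SE 0.51, adjusted p = 0.00113). The other 4 subunits also rose, *Mcm6* by 2.25, *Mcm3* by 1.93, *Mcm4* by 1.43 and *Mcm7* by 0.56 on the log2 scale. *Mcm7* shares exon sequence with *Ap4m1* and *Cops6* on the opposite strand, and since the strand setting of the counting is not stated, reads of overlapping genes cannot be told apart.

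The largest rise among the fork genes tested was that of *Uhrf1*, which recruits the maintenance methyltransferase DNMT1 to newly made DNA. *Uhrf1* and *Gins2* are the S-phase genes that passed the filter only through the Ndrg3 LKO livers and so had to differ, and their fold changes are given as a description. *Uhrf1* measured 0.225, 0.635, 0.278, 0.138 and 0.179 CPM in WT and 5.23, 1.41, 0.849, 6.27 and 6.13 CPM in Ndrg3 LKO, without overlap (log2 fold change 3.73, SE 0.65). *Gins2*, a subunit of the GINS complex that joins the helicase, had a log2 fold change of 3.17. *Gins1*, another GINS subunit, had a log2 fold change of 0.26 (adjusted p = 0.553), and of -0.01 (adjusted p = 0.98) without Ndrg3 LKO replicate 5. *Gins2* shares 2758 bp of exon with *Gse1* on the opposite strand. *Cdt1*, which loads the helicase together with CDC6, had a log2 fold change of 0.70 (adjusted p = 0.229). *Cdc6* stayed under the filter, at 0.0561 to 0.293 CPM in WT and 0.267 to 1.34 CPM in Ndrg3 LKO, and in the fit without the filter it rose by 2.15 (adjusted p = 0.0100).

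*Pcna*, the sliding clamp of the DNA polymerases and a common histological marker of proliferation (chr2:132074898-132079050), did not follow the helicase. It measured 30.4, 29.1, 37.1, 25.9 and 33.5 CPM in WT and 37.8, 20.6, 21.3, 26.9 and 53.2 CPM in Ndrg3 LKO. Ndrg3 LKO replicates 2 and 3 lay below all WT livers and replicates 1 and 5 above them, so that the groups overlapped on both sides. The log2 fold change was 0.03 (SE 0.25, adjusted p = 0.920), and its sign turned without Ndrg3 LKO replicate 5 (-0.24, adjusted p = 0.294). Scaling by library size alone gave 0.49 (adjusted p = 0.0316), a scale on which the median of all genes lay higher by 0.528. Per kilobase of exon, *Pcna* was also the most abundant fork gene in WT liver, at 13 CPM as against 2.66 for *Mcm7*, 0.817 for *Mcm3* and 0.0302 for *Cdc6*. The annotation holds the pseudogenes *Pcna-ps1* and *Pcna-ps2*, whose reads the counting could have split from or added to those of the gene.

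Nucleotide supply split. *Rrm1*, the large subunit of ribonucleotide reductase (chr7:109590209-109618285), measured 7.13, 7.23, 8.69, 7.58 and 9.34 CPM in WT and 28.6, 17.6, 19.5, 27.4 and 42.8 CPM in Ndrg3 LKO. Each Ndrg3 LKO liver lay well above the WT range, at a log2 fold change of 1.77 (SE 0.23, adjusted p = 1.19e-04). *Rrm2*, the small subunit of the same enzyme and the one whose level follows the cell cycle, measured 14.3, 6.64, 12.7, 13.1 and 8.63 CPM in WT and 12.5, 3.61, 2.19, 14.4 and 27.9 CPM in Ndrg3 LKO. Its Ndrg3 LKO values fell on both sides of the WT range, with a log2 fold change of 0.12 (SE 0.55, adjusted p = 0.872). The sign turned without Ndrg3 LKO replicate 5 (-0.45, adjusted p = 0.458) and with a block for the replicate number (-0.33, adjusted p = 0.638). *Tyms*, encoding thymidylate synthase, had a log2 fold change of 0.24 (SE 0.21, adjusted p = 0.377).

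*Tk1*, the salvage kinase for thymidine (chr11:117676840-117687406), was the 1 gene called lower. It measured 53.4, 27.6, 31.7, 45.3 and 32.7 CPM in WT and 9.34, 3.22, 3.09, 6.70 and 37.9 CPM in Ndrg3 LKO. Ndrg3 LKO replicates 1 to 4 lay below all WT livers, and replicate 5 lay inside the WT range. The log2 fold change was -1.68 (SE 0.62, adjusted p = 0.0430) over 10 livers and -2.79 (adjusted p = 6.09e-05) without replicate 5. The call was lost with no filter (adjusted p = 0.0881) and when any liver other than Ndrg3 LKO replicate 5 was left out. *Afmid*, a gene of tryptophan breakdown that is abundant in liver, lies on the opposite strand across the whole of *Tk1* (chr11:117670982-117701222) and shares 83 bp of exon with it. *Afmid* measured 193, 108, 112, 162 and 96.5 CPM in WT and 21, 23.9, 15.7, 22.4 and 98.4 CPM in Ndrg3 LKO, with the same liver standing apart. The part of *Afmid* reads in the *Tk1* counts was not tested.

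**Figure D2:**
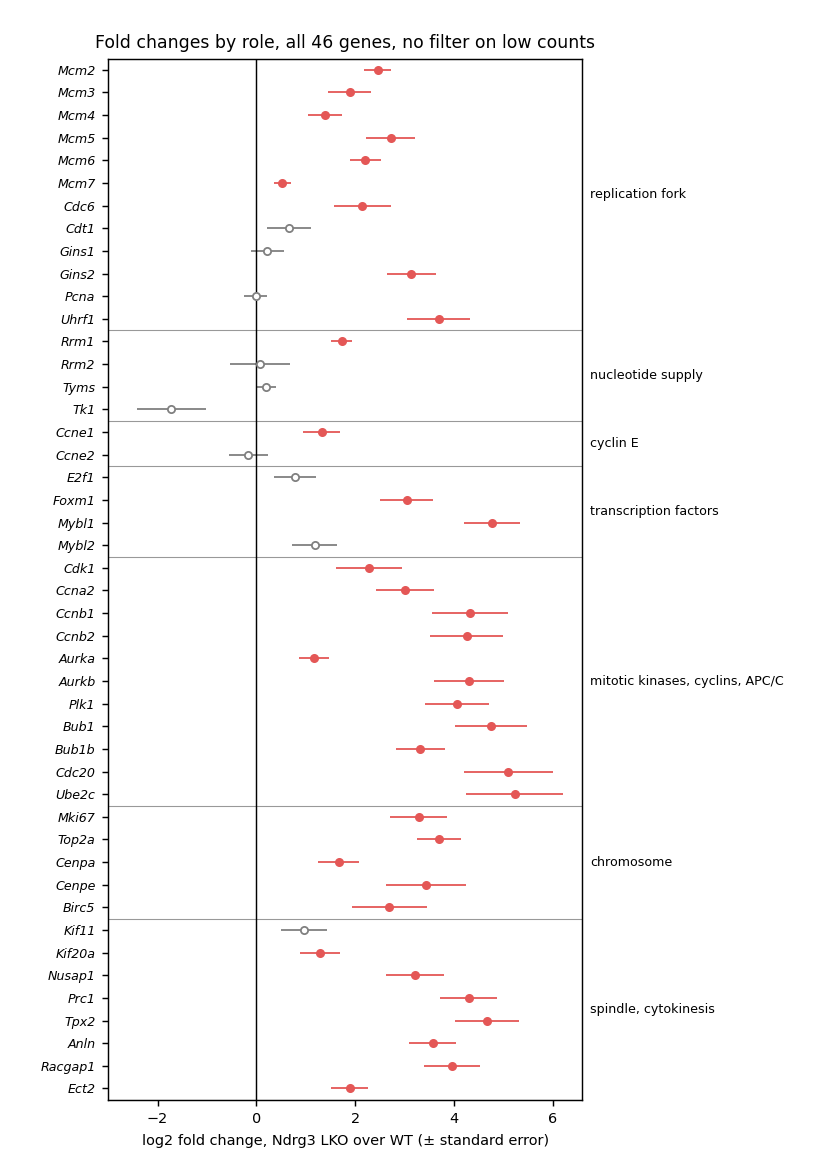
Log2 fold change of Ndrg3 LKO over WT (points) with its standard error (lines) for all 46 genes in the fit without a filter on low counts, grouped by role. Filled red points mark the 36 genes with an adjusted p under 0.05 by edgeR and open grey points the other 10, and the vertical line marks no change.

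Of the cyclin E genes, whose products activate CDK2 at the entry to S phase, *Ccne1* rose and *Ccne2* stayed under the filter. *Ccne1* (chr7:38883003-38892553) measured 0.505, 1.42, 1.73, 2.85 and 2.32 CPM in WT and 4.83, 2.47, 3.60, 4.53 and 7.45 CPM in Ndrg3 LKO. Only Ndrg3 LKO replicate 2 fell within the WT range, and the log2 fold change was 1.36 (SE 0.40, adjusted p = 0.0141). *Ccne2* was counted between 6 and 16 times in each WT liver and between 10 and 25 times in each Ndrg3 LKO liver, and its log2 fold change without the filter was -0.17 (adjusted p = 0.758).

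Of the 4 transcription factors only *E2f1* passed the filter. *E2f1* (chr2:154385143-154395628), an activator of S-phase genes, measured 1.96, 2.34, 2.56, 2.99 and 2.80 CPM in WT and 6.50, 1.6, 1.78, 3.65 and 9.24 CPM in Ndrg3 LKO. Ndrg3 LKO replicates 1, 4 and 5 lay above all WT livers and replicates 2 and 3 below them, at a log2 fold change of 0.83 (SE 0.44, adjusted p = 0.137). *Foxm1*, an activator of G2 and mitosis genes (chr6:128312985-128325911), measured 0.112, 0.147, 0.111, 0.230 and 0.357 CPM in WT and 2.44, 0.654, 0.541, 1.91 and 2.78 CPM in Ndrg3 LKO. The groups did not overlap, and in the fit without a filter *Foxm1* rose by 3.04 on the log2 scale (SE 0.54, adjusted p = 7e-04). *Mybl1*, encoding A-MYB, was counted 8 times in the 5 WT livers together and 440 times in the 5 Ndrg3 LKO livers (log2 fold change 4.77 without the filter, adjusted p = 3.17e-05). *Mybl2*, encoding B-MYB, reached 0.0557 to 0.367 CPM in WT and 0.339 to 0.627 CPM in Ndrg3 LKO and did not pass the test (log2 fold change 1.18, adjusted p = 0.0611). Unlike most of the genes, *Mybl1* was lowest in Ndrg3 LKO replicate 5 and second highest in replicate 2.

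Mitotic kinases, cyclins and genes of the anaphase-promoting machinery were low in most WT livers, except *Cdk1* and *Aurka*, which reached 1 CPM in all 5, and those tested were all higher in Ndrg3 LKO. In the fit without the filter all 11 were higher, as against 18.4% of all genes. All 7 that passed the filter were also higher (25.6% of all genes tested). Of the 7, *Ccnb1*, *Ccnb2*, *Bub1b*, *Cdc20* and *Ube2c* reached 1 CPM by library size in no WT liver and passed only through the Ndrg3 LKO livers. These 5 had to differ, and their fold changes are given as a description. *Cdk1*, the kinase that drives entry into mitosis (chr10:68799383-68815686), measured 1.91, 2.25, 4.01, 1.98 and 3.87 CPM in WT and 20.1, 3.39, 3.06, 10.7 and 33.1 CPM in Ndrg3 LKO. Ndrg3 LKO replicates 2 and 3 lay within the WT range and the other 3 well above it (log2 fold change 2.33, SE 0.61, adjusted p = 0.00845). Without Ndrg3 LKO replicate 5 the log2 fold change of *Cdk1* was 1.725 (adjusted p = 0.0175). *Ccnb1*, its partner cyclin B1 (chr13:101548605-101556525), measured 0, 0.0977, 0.334, 0.367 and 0.298 CPM in WT and 8.74, 1.74, 0.849, 4.39 and 7.68 CPM in Ndrg3 LKO. Here the groups did not overlap, at a log2 fold change of 4.37 (SE 0.76).

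The largest rise of all 46 genes was that of *Ube2c*, the ubiquitin-conjugating enzyme of the anaphase-promoting complex. *Ube2c* (chr2:164595398-164604322) measured 0.0561, 0.440, 0.780, 0.0919 and 0.357 CPM in WT and 27.3, 2.35, 1.98, 14.5 and 21 CPM in Ndrg3 LKO. Its log2 fold change was 5.28 (SE 0.88). *Cdc20*, the activator of the same complex (chr4:118105506-118109957), measured 0.168, 0.244, 0.223, 0.322 and 0.119 CPM in WT and 14.9, 1.36, 1.06, 7.78 and 14.8 CPM in Ndrg3 LKO. The log2 fold change of *Cdc20* was 5.14 (SE 0.85). In both genes every Ndrg3 LKO liver was above every WT liver, and replicates 2 and 3 were several times below the other 3. *Ube2c* shares 592 bp of exon with *Tnnc2* and *Cdc20* 53 bp with *Elovl1* on the opposite strands, and the part of these genes in the counts was not tested.

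*Aurka*, the centrosomal Aurora kinase, had the smallest rise of the tested kinases and cyclins. It measured 2.69, 3.86, 3.95, 3.81 and 3.09 CPM in WT and 12.5, 4.39, 4.17, 7.38 and 12 CPM in Ndrg3 LKO, without overlap (log2 fold change 1.21, SE 0.32, adjusted p = 0.00859). *Aurkb*, *Plk1*, *Bub1* and *Ccna2*, which act in chromosome segregation, at centrosomes, in the spindle checkpoint and as cyclin A2, were under the filter and rose by 4.30, 4.06, 4.75 and 3.01 on the log2 scale in the fit without it. *Bub1* shows how little was counted in WT liver, with 6 reads in the 5 WT livers together and 309 in the 5 Ndrg3 LKO livers. Values of *Ccnb2* and *Bub1b*, encoding cyclin B2 and the checkpoint kinase BUBR1, rose by 4.30 and 3.35.

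Of the chromosome and centromere genes 4 of the 4 tested were higher, and 5 of 5 without the filter, as against 25.6% and 18.4% of all genes. *Top2a* reached 1 CPM in no WT liver and passed only through the Ndrg3 LKO livers. It had to differ, and its fold change is given as a description. *Mki67* encodes Ki-67, the coat protein of mitotic chromosomes used as a marker of cycling cells (chr7:142881471-142908062). It measured 0.393, 1.12, 1.34, 0.827 and 0.417 CPM in WT and 11.7, 2.96, 2.45, 8.95 and 15.8 CPM in Ndrg3 LKO (log2 fold change 3.33, SE 0.57, adjusted p = 7.1e-04). *Top2a*, the topoisomerase that untangles sister chromatids (chr11:98854257-98885503), measured 0.393, 0.537, 0.445, 0.551 and 0.417 CPM in WT and 10, 2.76, 2.16, 7.24 and 9.76 CPM in Ndrg3 LKO (log2 fold change 3.74, SE 0.47). In both genes the lowest Ndrg3 LKO liver was above the highest WT liver. *Cenpa*, the histone of centromeres, rose least in the class, from 1.80, 2.44, 2.51, 2.57 and 2.86 CPM in WT to 11.9, 3.05, 3.06, 8.15 and 13.8 CPM in Ndrg3 LKO (log2 fold change 1.71, SE 0.42, adjusted p = 0.00565). *Birc5*, encoding survivin of the chromosomal passenger complex, rose by 2.74 (adjusted p = 0.00702), although Ndrg3 LKO replicates 2 and 3, at 1.38 and 1.39 CPM, lay inside the WT range of 0.893 to 1.65 CPM.

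Of the 8 spindle and cytokinesis genes, 7 were higher in the fit without the filter, as against 18.4% of all genes. With the filter all 8 were tested and 7 were higher (25.6% of all genes tested). Of the 8, *Nusap1*, *Prc1*, *Tpx2*, *Anln* and *Racgap1* passed, by library size, only through the Ndrg3 LKO livers. These 5 had to differ, and their fold changes are given as a description. *Tpx2*, which activates Aurora A and seeds spindle microtubules (chr2:152673700-152721057), measured 0.112, 0.147, 0.278, 0.184 and 0.179 CPM in WT and 8.39, 1.38, 1.11, 6.15 and 7.21 CPM in Ndrg3 LKO. The groups stood far apart, at a log2 fold change of 4.71 (SE 0.68). *Prc1*, *Racgap1*, *Anln* and *Ect2*, of the central spindle and the cleavage furrow, rose by 4.35, 4.0, 3.61 and 1.94, *Nusap1* of the spindle by 3.26 and *Kif20a*, a kinesin of cytokinesis, by 1.33. *Kif11*, the kinesin that pushes spindle poles apart (chr19:37450893-37496349), measured 0.954, 1.12, 1.67, 1.1 and 1.19 CPM in WT and 3.79, 1.02, 0.643, 2.14 and 4.71 CPM in Ndrg3 LKO. Ndrg3 LKO replicate 3 was below every WT liver and replicate 2 below all but WT replicate 1, and *Kif11* did not pass the test (log2 fold change 1.0, SE 0.48, adjusted p = 0.103). It passed without Ndrg3 LKO replicate 2 or replicate 3 (adjusted p = 0.0497 and 0.0251) and with scaling by library size alone (0.0107). *Ccne2*, *Ccna2*, *Kif20a* and *Nusap1* also share exon sequence with a gene on the opposite strand (*Ints8*, *Exosc9*, *Cdc23* and *Oip5*), and *Ccnb2* has the pseudogene copy *Ccnb2-ps*.

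**Figure D3:**
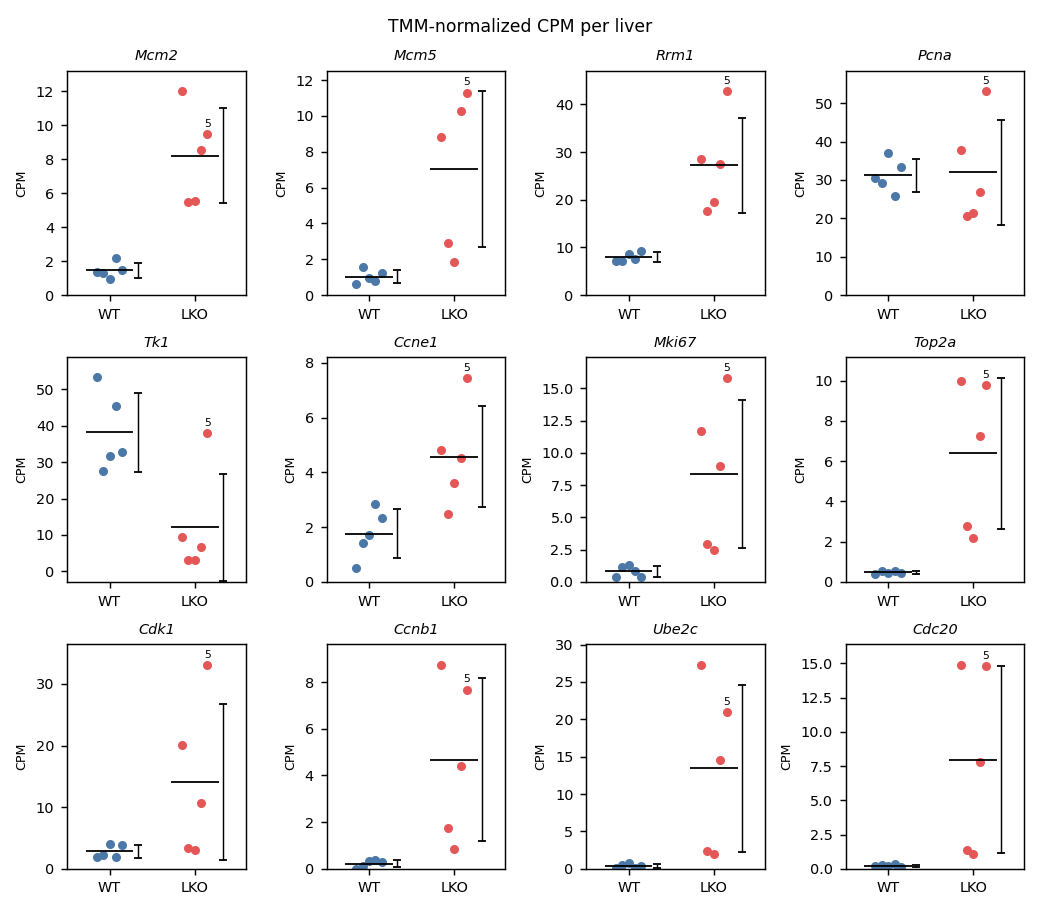
TMM-normalized CPM of 12 of the genes in each of the 5 WT and 5 Ndrg3 LKO livers (points), with the mean (horizontal line) and SD (vertical bar beside the points), and Ndrg3 LKO replicate 5 marked 5. The Ndrg3 LKO livers spread widely, with replicates 2 and 3 lowest in most panels, and the groups overlap for *Pcna*, *Tk1*, *Ccne1* and *Cdk1*.

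Genes of G2 and mitosis differed more between the groups than genes of DNA synthesis. Without the filter, 23 of 24 G2/M genes and 11 of 18 S-phase genes were higher, with medians of 3.50 and 1.36, where 18.4% of all genes were higher. With the filter, 11 of the 19 G2/M genes tested and 2 of the 16 S-phase genes passed only through the Ndrg3 LKO livers and so had to differ. Of the genes that reached 1 CPM in every WT liver, 3 of 3 G2/M genes were higher, and 5 of 11 S-phase genes were higher and 1 lower (21.9% and 25.3% of all such genes). The 3 G2/M genes, *Cdk1*, *Cenpa* and *Aurka*, had log2 fold changes of 2.33, 1.71 and 1.21. Those of the 11 S-phase genes ran from -1.68 for *Tk1* to 2.25 for *Mcm6*, a range that holds *Cenpa* and *Aurka*. In all, of the 19 G2/M genes 18 were higher and 0 lower (25.6% and 23% of all genes tested), with log2 fold changes from 1.0 to 5.28 and a median of 3.35. Of the 16 S-phase genes tested, 10 were higher and 1 lower, with log2 fold changes from -1.68 to 3.73 and a median of 1.40, which was lower by 1.96 than that of the G2/M genes. Both medians include the genes that had to differ, which make up more of the G2/M class. In a linear model of log2(CPM + 1) by limma the gap was smaller, with medians of 1.04 for S-phase and 1.58 for G2/M genes. When the S-phase class was narrowed to the *Mcm*, *Pcna*, *Rrm*, *Tyms*, *Cdc6* and *Ccne* genes, 8 of the 11 tested were higher, at a median of 1.43. Without Ndrg3 LKO replicate 5 the medians were 1.21 for S-phase and 3.13 for G2/M genes, with 10 of 16 and 18 of 19 higher (28.4% of all genes). The difference between the classes is a description, since genes are not replicates of a condition, and the classes also differed in level. The median gene of the S-phase class measured 0.766 CPM per kilobase in WT, that of the G2/M class 0.0814, and in Ndrg3 LKO they measured 2.17 and 0.826.

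In absolute terms the S-phase class changed less clearly. The summed level of the 18 S-phase genes was 139, 108, 126, 131 and 123 CPM in WT and 205, 97.1, 93.9, 184 and 286 CPM in Ndrg3 LKO, so that Ndrg3 LKO replicates 2 and 3 lay below all WT livers. This sum holds *Tk1*. Over the 13 narrower S-phase genes, which leave out *Tk1*, it was 81.0, 73.4, 88.1, 80.8 and 84.4 CPM in WT and 178, 87.8, 85.8, 161 and 226 CPM in Ndrg3 LKO, and no Ndrg3 LKO liver lay below the WT range. The 24 G2/M genes summed to 13.6, 17.6, 22.0, 18.1 and 18 CPM in WT and to 222, 43.4, 34.9, 132 and 228 CPM in Ndrg3 LKO, all above WT. Per kilobase of exon, *Pcna* and *Tk1* had the highest levels of the fork and nucleotide genes in WT, at 13 and 7.34 CPM.

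Ndrg3 LKO replicates 2 and 3 stood below replicates 1, 4 and 5 in most genes. The 2 lowest Ndrg3 LKO values came from replicates 2 and 3 in 42 of the 46 genes, in 24 of 24 G2/M genes and in 16 of 18 S-phase genes, and in 18.8% of the 17746 genes with a count. The highest came from replicate 5 in 21 genes, replicate 1 in 20 and replicate 4 in 5. As the median over genes of log2(CPM + 1) minus the WT mean, the G2/M genes stood at 2.39, 0.79, 0.60, 1.72 and 2.38 in Ndrg3 LKO replicates 1 to 5 and the S-phase genes at 0.95, 0.34, 0.16, 0.99 and 1.42. Replicates 2 and 3 were both above every WT liver in 19 of 24 G2/M genes and in 7 of 18 S-phase genes, as against 24.8% of those genes. The labels give no batch, age or body measure for single animals, and the source of this difference was not tested.

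The promoters of the members held different sequence motifs by class. Windows from 250 bases before to 50 after the gene start were taken from RefSeq for the GRCm38.p6 build, and 36 of the 46 genes had at least 1. An E2F motif (TTTCCCGC, TTTGGCGC, TTTCGCGC or TTTGCCGC on either strand) was present in 7 of 14 S-phase genes (50%), in 1 of 20 G2/M genes (5%) and in 2.6% of all 27025 genes. A CHR motif (TTTGAA or TTCGAA, either strand) was present in 2 of 14 S-phase genes (14.3%), 16 of 20 G2/M genes (80%) and 21.7% of all genes. CCAAT, on either strand, was present in 64.3%, 85% and 41.1%. A CHR and a CCAAT motif shared a window in 15 of 20 G2/M genes (75%) and in 8.61% of all genes. The letters of TTTGGCGC and TTTCGCGC can overlap on opposite strands, and a match describes the letters only. *Foxm1*, *Gins1*, *Gins2*, *Kif20a*, *Ccne2*, *Tpx2*, *Mybl1*, *Ccna2*, *Mcm4* and *Aurkb* had no window in the table.

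The 160 bases before the start are shown for 4 G2/M genes and 2 helicase genes, because they let the motifs of the classes be compared. *Top2a*, *Mki67* and *Cdc20* rose strongly, *Kif11* did not pass the test, and *Mcm5* and *Mcm6* carry E2F letters. Capitals mark the motifs on either strand. Their places in mm9 were found by exact match and are chr11:98885504-98885663 (minus strand) for *Top2a*, chr7:142908063-142908222 (minus) for *Mki67*, chr4:118109949-118110108 (minus) for *Cdc20*, chr19:37450712-37450871 (plus) for *Kif11*, chr8:77633248-77633407 (plus) for *Mcm5* and chr1:130256283-130256442 (minus) for *Mcm6*.
Top2a: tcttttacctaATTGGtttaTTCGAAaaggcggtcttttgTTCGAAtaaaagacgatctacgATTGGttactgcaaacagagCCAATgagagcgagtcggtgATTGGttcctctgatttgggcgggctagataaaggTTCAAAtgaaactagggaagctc
Mki67: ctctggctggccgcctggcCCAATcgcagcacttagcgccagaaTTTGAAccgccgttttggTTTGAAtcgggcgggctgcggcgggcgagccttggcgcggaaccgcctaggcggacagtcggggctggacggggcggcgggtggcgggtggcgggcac
Cdc20: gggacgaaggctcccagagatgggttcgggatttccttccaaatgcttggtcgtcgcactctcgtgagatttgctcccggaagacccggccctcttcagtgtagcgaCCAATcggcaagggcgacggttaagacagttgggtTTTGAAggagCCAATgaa
Kif11: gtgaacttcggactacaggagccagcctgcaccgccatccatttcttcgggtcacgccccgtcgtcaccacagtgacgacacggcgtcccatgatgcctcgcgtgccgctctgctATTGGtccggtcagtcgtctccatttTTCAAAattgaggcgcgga
Mcm5: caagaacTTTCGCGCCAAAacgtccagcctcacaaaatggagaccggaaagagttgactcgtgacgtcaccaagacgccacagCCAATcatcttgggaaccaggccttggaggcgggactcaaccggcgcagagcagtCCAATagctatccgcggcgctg
Mcm6: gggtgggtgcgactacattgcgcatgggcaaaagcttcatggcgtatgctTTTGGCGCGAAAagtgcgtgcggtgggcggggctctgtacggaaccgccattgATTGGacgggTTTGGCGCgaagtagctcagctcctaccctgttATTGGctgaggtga

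In *Cdc20* a CHR motif starts 18 bases before the gene start and in *Kif11* 19 bases before it, each with a CCAAT motif further upstream, at 53 and 45 bases. *Cdc20* holds a further CCAAT motif 8 bases before the start. The log2 fold changes of *Kif11* and *Cdc20* were 1.0 and 5.14, and the relation of motifs to fold changes was not tested. *Mcm5* holds overlapping E2F motifs that start 153 and 149 bases before the start, and *Mcm6* a like pair at 110 and 106 bases and a further E2F motif at 47 bases.

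Beyond the 46 genes, 50 other replication genes and 63 other mitosis genes were examined. Of the other replication genes 43 were tested, 13 were higher, 2 were lower and 28 did not pass, at a median log2 fold change of 0.37, where 25.6% and 23% of all genes tested were higher and lower. With scaling by library size alone 27 were higher and 1 was lower (51.9% and 9.02% of all genes). Without Ndrg3 LKO replicate 5, 12 were higher and 6 were lower (28.4% and 27.1%). A block for the replicate number left 9 higher and 3 lower (2211 and 2196 of the 11208 genes tested). Without Ndrg3 LKO replicate 1, 9 were called in either direction, as against 15 with all livers (4704 and 5441 of all genes). Their summed level was 487 to 591 CPM in WT and 413 to 616 CPM in Ndrg3 LKO. *Lig1*, the ligase that seals Okazaki fragments, measured 1.29, 1.76, 1.22, 1.61 and 1.43 CPM in WT and 9.40, 3.42, 4.17, 7.86 and 11.1 CPM in Ndrg3 LKO (log2 fold change 2.29, adjusted p = 2.42e-04). *Fen1*, the flap nuclease of the same step, measured 1.80, 2.05, 2.17, 2.80 and 2.38 CPM in WT and 8.05, 3.61, 2.73, 8.41 and 8.86 CPM in Ndrg3 LKO (log2 fold change 1.49, adjusted p = 0.00329). *Lig1* was higher in every Ndrg3 LKO liver than in any WT liver, and for *Fen1* replicate 3 fell within the WT range. The annotation places 2039 bp of *Fen1* exon opposite 2 other genes.

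The lower genes included *Mcm10*, which helps to start the helicase and was far more abundant in WT liver than the MCM2-7 genes, at 17.0 CPM per kilobase. It measured 95.9, 118, 166, 155 and 117 CPM in WT and 30.4, 12.1, 21.6, 33.2 and 56.5 CPM in Ndrg3 LKO. Every Ndrg3 LKO liver lay below every WT liver (log2 fold change -2.09, SE 0.34, adjusted p = 5.18e-04). *Pold3*, a subunit of DNA polymerase delta, measured 7.35, 8.16, 6.68, 7.49 and 6.07 CPM in WT and 3.36, 3.56, 3.29, 4.56 and 7.68 CPM in Ndrg3 LKO. Replicate 5 alone of the Ndrg3 LKO livers was within the WT range (log2 fold change -0.68, adjusted p = 0.0328, and -0.97, adjusted p = 4.82e-04, without it). The call was lost without WT replicate 1, 2 or 4 or Ndrg3 LKO replicate 1, 2, 3 or 4 (adjusted p from 0.0546 to 0.0797) and with scaling by library size alone (log2 fold change -0.21, adjusted p = 0.370).

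Of the other mitosis genes 24 were tested, 15 were higher, 1 was lower and 8 did not pass, where 25.6% and 23% of all genes tested were higher and lower. Of the 24, 7 genes, *Ckap2* and *Knstrn* among them, reached 1 CPM in no WT liver and passed the filter only through the Ndrg3 LKO livers. They had to differ, and the fold changes of these genes are given as a description. Of the 12 that reached 1 CPM in every WT liver 5 were higher and 1 was lower (21.9% and 25.3% of all such genes). Without the filter 47 of 63 were higher and 1 was lower (18.4% and 16.1% of all genes). The counts were again 15 and 1 without Ndrg3 LKO replicate 5 (28.4% and 27.1% of all genes). *Ckap2*, a spindle protein, measured 0, 0.293, 0.0557, 0.0919 and 0.119 CPM in WT and 6.35, 1.43, 1.11, 5.39 and 5.23 CPM in Ndrg3 LKO (log2 fold change 5.02). *Knstrn*, a kinetochore protein, measured 0.112, 0.391, 0.390, 0.184 and 0.298 CPM in WT and 8.85, 1.45, 1.24, 4.76 and 9.95 CPM in Ndrg3 LKO (log2 fold change 4.22). Neither gene overlapped between the groups, and in both replicates 2 and 3 were again the lowest of Ndrg3 LKO. *Ccnf*, encoding cyclin F, a substrate receptor of an SCF ubiquitin ligase, moved the other way. It measured 36.7, 28.2, 30.6, 30.8 and 27.6 CPM in WT and 9.54, 6.35, 7.59, 12.4 and 11.7 CPM in Ndrg3 LKO, without overlap (log2 fold change -1.70, SE 0.19, adjusted p = 4.32e-05).

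Of 7 G1 cyclins, kinases and MYC genes tested, *Ccnd1* and *Ccnd2* were higher and 5 did not pass, among them *Ccnd3* (log2 fold change 0.07, adjusted p = 0.744). Among all genes tested 25.6% were higher, close to the share in this list. Without Ndrg3 LKO replicate 5, 2 of the 7 were higher and 1 was lower (28.4% and 27.1% of all genes), and with scaling by library size alone 5 were higher and 0 lower (51.9% and 9.02%). *Ccnd1*, encoding cyclin D1 (chr7:152115836-152125774), measured 6.57, 14.8, 11.6, 26.9 and 13.7 CPM in WT and 236, 281, 198, 424 and 138 CPM in Ndrg3 LKO. The lowest Ndrg3 LKO liver, replicate 5, was several times above the highest WT liver, and replicate 2 was the second highest here (log2 fold change 4.11, SE 0.40, adjusted p = 2.1e-05). *Ccnd1* shares 818 bp of exon with *Oraov1*, which rose by 1.47 (adjusted p = 0.00438). *Cdk4*, the kinase partner of D cyclins, measured 32.5, 37.8, 32.2, 32.6 and 38.2 CPM in WT and 33.8, 29.5, 26.0, 35.8 and 42.6 CPM in Ndrg3 LKO. Its groups overlapped, at a log2 fold change of -0.05 (SE 0.14, adjusted p = 0.793) that turned to 0.45 (adjusted p = 0.00883) with scaling by library size alone.

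Of the 5 CDK inhibitors tested 1 was higher and 1 was lower, as against 25.6% and 23% of all genes tested, and with scaling by library size alone 3 were higher and 0 lower (51.9% and 9.02%). *Cdkn1a*, encoding p21, varied widely in both groups, at 171, 108, 138, 27.1 and 44.0 CPM in WT and 102, 121, 81.4, 177 and 63.8 CPM in Ndrg3 LKO (log2 fold change 0.16, SE 0.45, adjusted p = 0.787). *Cdkn2c*, encoding p18, rose from 2.97 to 4.68 CPM in WT to 8.98 to 13.8 CPM in Ndrg3 LKO (log2 fold change 1.6, adjusted p = 4.12e-05), and *Cdkn1b*, encoding p27, fell by 0.93 on the log2 scale (adjusted p = 0.00279).

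Of 16 genes tested of the retinoblastoma, E2F and DREAM family, 3 were higher and 7 were lower, as against 25.6% and 23% of all genes tested. Without Ndrg3 LKO replicate 5 these counts were 3 and 10 (28.4% and 27.1% of all genes), and with scaling by library size alone 5 and 2 (51.9% and 9.02%). With a block for the replicate number they were 3 and 4 (2211 and 2196 of the 11208 genes tested). *E2f8*, an atypical E2F that represses E2F targets and promotes polyploidy in liver, measured 22.8, 40.2, 22.0, 10.2 and 41.3 CPM in WT and 4.23, 3.10, 0.952, 4.53 and 2.07 CPM in Ndrg3 LKO. No Ndrg3 LKO liver reached the lowest WT liver (log2 fold change -3.19, SE 0.46, adjusted p = 2.33e-04). *E2f7*, the related repressor, stayed under the filter at 0.0488 to 0.827 CPM in WT and 0.0969 to 0.518 CPM in Ndrg3 LKO. *Rbl1*, encoding p107, rose by 1.98 (adjusted p = 1.75e-04) and *Rbl2*, encoding p130, the pocket protein of quiescent cells, fell by 1.52 on the log2 scale (adjusted p = 2.92e-04).

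**Figure D4:**
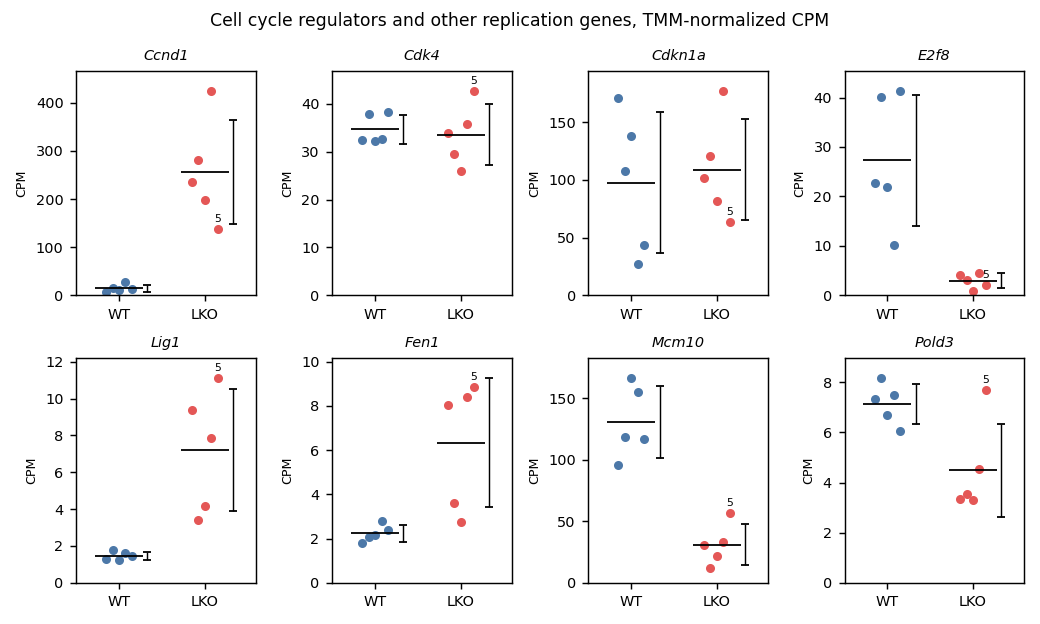
TMM-normalized CPM of 4 cell cycle regulators (upper row) and 4 other replication genes (lower row) in each WT and Ndrg3 LKO liver (points), with mean (horizontal line) and SD (vertical bar), and Ndrg3 LKO replicate 5 marked 5. *Ccnd1* and *Lig1* are higher and *E2f8* and *Mcm10* lower in every Ndrg3 LKO liver, whereas *Cdk4*, *Cdkn1a*, *Fen1* and *Pold3* overlap.

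Markers of liver cell types differed between the same livers. The 12 hepatocyte markers, led by *Alb*, summed to between 159000 and 202000 CPM in WT, to between 41600 and 49700 CPM in Ndrg3 LKO replicates 1 to 4 and to 164000 CPM in replicate 5. Of the 11 tested, 0 were higher and 8 were lower, where 25.6% and 23% of all genes tested were higher and lower, the shares against which the other markers are also counted. *Alb*, which encodes albumin, lay at 20900 to 116000 CPM in the 10 livers. Of 16 macrophage markers 12 were tested and all 12 were higher, led by *Clec4f* of Kupffer cells. Their sum was 136, 366, 163, 181 and 241 CPM in WT and 953, 298, 900, 512 and 424 CPM in Ndrg3 LKO.

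Endothelial markers, led by *Clec4g*, were higher in 9 of 10 tested genes, with sums of 86.0 to 114 CPM in WT and 173 to 213 CPM in Ndrg3 LKO. Stellate cell markers, led by *Dcn*, were higher in 7 of 12 tested genes, with sums of 123 to 189 CPM in WT and 263 to 339 CPM in Ndrg3 LKO. Of the cholangiocyte and progenitor markers 2 of 7 were higher and 1 was lower, near the shares of all genes tested, with *Spp1* the most abundant. Their sum was 50.7 to 82.5 CPM in WT and 63.5 to 253 CPM in Ndrg3 LKO. None of the T and NK cell or neutrophil markers reached the filter, and in the fit without it 3 of 11 T and NK and 4 of 8 neutrophil markers were higher and 0 lower (18.4% and 16.1% of all genes). The T and NK markers, led by *Cd4*, summed to 2.26 to 5.46 CPM in WT and 2.98 to 10 CPM in Ndrg3 LKO, with *Cd3d*, *Cd2*, *Cd8a*, *Cd8b1* and *Ncr1* at 0 in some livers. The neutrophil markers, led by *S100a9*, summed to at most 1.06 CPM in WT and 3.65 CPM in Ndrg3 LKO except in replicate 5, at 16.1 CPM, with *Mpo*, *Elane*, *Camp*, *Ngp*, *Cxcr2* and *Retnlg* at 0 in some livers.

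The B and plasma cell markers, led by *Xbp1*, which hepatocytes also express, had 1 of 2 tested genes higher and 1 lower, and summed to 140 to 248 CPM in WT and 74.4 to 142 CPM in Ndrg3 LKO, with *Ms4a1* and *Pax5* at 0 in some livers. Both erythroid markers tested, led by *Alas2*, were lower, at sums of 145 to 169 CPM in WT and 4.90 to 41.5 CPM in Ndrg3 LKO, and *Hbb-b1*, *Hba-a1* and *Gata1* were listed at 0 in every liver. Without Ndrg3 LKO replicate 5, 9 of 11 hepatocyte markers were lower, and 13 of 13 macrophage, 8 of 10 endothelial and 8 of 12 stellate markers were higher (27.1% of all genes were then lower and 28.4% higher). With scaling by library size alone, 1 of 11 hepatocyte markers was higher and 8 were lower (51.9% and 9.02% of all genes). On that scale 12 of 12 macrophage, 10 of 10 endothelial, 11 of 12 stellate and 4 of 7 cholangiocyte and progenitor markers were higher, and 0 were lower. The part of these cell types in the levels of replication and mitosis genes was not tested.

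**Figure D5:**
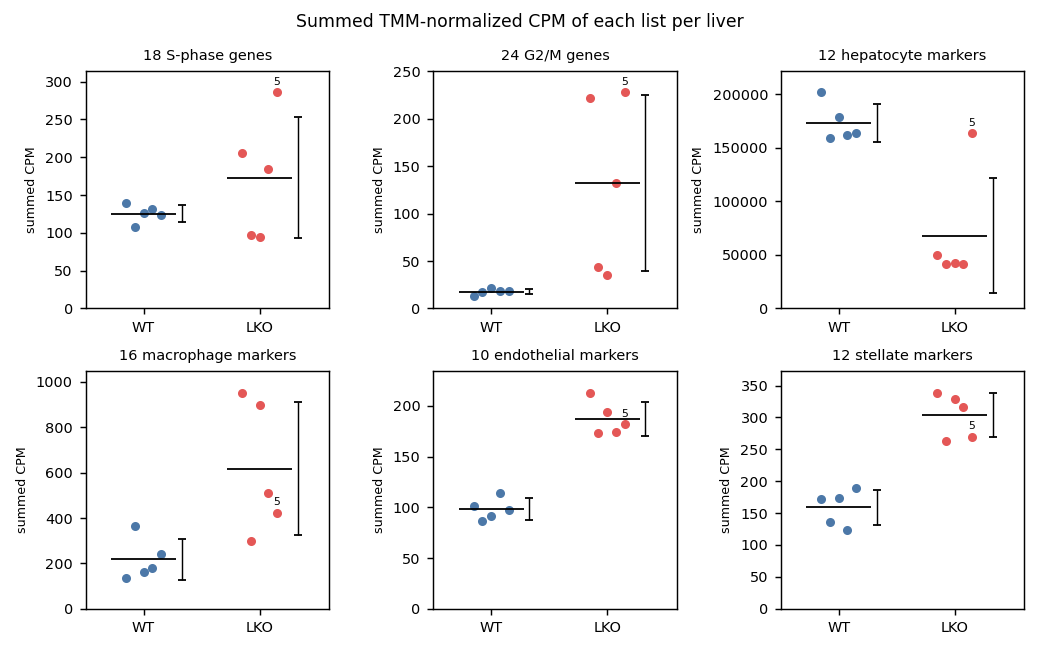
Summed TMM-normalized CPM of 6 gene lists in each WT and Ndrg3 LKO liver (points), with mean (horizontal line) and SD (vertical bar), and Ndrg3 LKO replicate 5 marked 5. The G2/M, endothelial and stellate sums are higher in every Ndrg3 LKO liver, the S-phase and macrophage sums overlap, and the hepatocyte sum of replicate 5 lies within the WT range.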

How the data were processed

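RNA from 10 livers (5 WT, 5 Ndrg3 LKO) was measured by stranded, paired-end mRNA sequencing. The submitters' processing notes name Trim Galore 0.6.4, STAR 2.7.3a, Cufflinks 2.2.1 and the mm9 build. The authors mapped the reads with STAR and counted them per gene. The deposited values are raw counts, whole numbers without normalization, although the files are named for CPM. The annotation and the strand setting of the counting are not given in the sources used here. Of the 24052 rows, 6306 had 0 counts in every liver and 25 have symbols that look like dates.

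Counts were fitted with edgeR 4.0.16 in R 4.3.3 (TMM scaling, robust quasi-likelihood test, Benjamini-Hochberg adjustment over the 11208 genes that reached 1 CPM, by library size before TMM, in 5 or more livers, or 4 with a liver left out, threshold 0.05). The SE is the ratio of the absolute log2 fold change to the root of the test's F value. Total counts per liver ranged from 20872262 to 30450057, and the floor of 3 counts reflects counting error alone, because PCR copies cannot be told from separate molecules without identifiers. Levels per kilobase use the union of exons in the GENCODE annotation of NCBIM37 (mm9). Promoter windows came from RefSeq.

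The members, their classes and the other lists were chosen with earlier results of these data known. Genes named are 10 chosen by role (*Mki67*, *Top2a*, *Cdk1*, *Ccnb1*, *Pcna*, *Mcm2*, *Mcm5*, *Ccne1*, *E2f1*, *Foxm1*), the highest and lowest tested fold change in each class, *Ccnd1*, *Cdk4*, *Cdkn1a*, *E2f7*, *E2f8*, *Ndrg3*, the most extreme called genes of the other lists, and the most abundant marker of each cell type. *Rrm2*, *Cdc20*, *Birc5*, *Cdkn1b*, *Cdkn2c*, *Rbl1*, *Rbl2*, *Afmid* and others outside this rule were named after their values were seen. Alternatives were DESeq2 1.42.0, limma 3.58.1 on log2(CPM + 1) and log2(CPM + 0.1), median-of-ratios factors, library size alone, no filter, a mean CPM of at least 1, a block for the replicate number, leaving out each liver, and an absolute log2 fold change above 1. In simulated counts for this comparison, with 200 of 11208 genes changed, edgeR recovered 100 of 100 genes changed 4-fold and 38 of 100 changed 2-fold, with 4 false calls. The simulation gave all genes the same biological spread and changed far fewer genes than the 48.5% called in the data. Recovery of genes that vary more between livers of a group was not tested. No pair of livers of a group was identical (chi-square per degree of freedom 27.2 to 543 over 20 pairs). Single values of some cell type markers are not reported here.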

Additional observations from a re-analysis of the deposited data

Results flagged for a closer look

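Within-group outliers were sought with Dixon's test in the CPM of 31 genes, giving 62 groups of 5 livers, of which chance flags about 1 in 20. There were 3. *Uhrf1* was at 0.635 CPM in WT replicate 2, as against 0.138 to 0.278 CPM in the other WT livers. *Tk1* was at 37.9 CPM in Ndrg3 LKO replicate 5, as against 3.09 to 9.34 CPM in the other Ndrg3 LKO livers. *Pold3* was at 7.68 CPM in Ndrg3 LKO replicate 5, as against 3.29 to 4.56 CPM in the others.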

How the results depend on the processing

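Of the 46 genes, 29 were called in the fit of 10 livers, and 27 to 32 when each liver was left out. With a liver left out, 4 livers at 1 CPM sufficed for the filter. The genes gained without any 1 WT liver were *Mybl1*, *Ccna2*, *Plk1* and *Bub1*. They reached 1 CPM in no WT liver, passed only through the Ndrg3 LKO livers and so had to differ. The 29 genes of the fit of 10 livers were also called with median-of-ratios factors, DESeq2, limma and the replicate block. These fits used the same filter, and 13 of the 29 genes passed it only through the Ndrg3 LKO livers. Those 13 had to differ under each method. Library size alone kept them and added *Cdt1*, *Gins1*, *Pcna*, *Tyms*, *E2f1* and *Kif11*. On that scale 85.2% of all calls were higher, as against 52.6%, and the median of all genes was 0.559, as against 0.031. With livers left out, 17 to 22 G2/M genes, 9 to 11 of the 18 and 7 to 8 of the 13 S-phase genes, 16 to 22 other mitosis and 9 to 18 other replication genes, and 4704 to 6361 of all genes were called, and the medians ranged from 3.13 to 3.70 (G2/M) and from 1.21 to 1.59 (S-phase). The lowest count of other replication genes, 9 as against 15, came without Ndrg3 LKO replicate 1. Leaving out Ndrg3 LKO replicate 1 lost *Tk1* and *Kif20a*, and replicate 4 *Mcm7* and *Tk1*.

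A log2 fold change above 1 in size left 2300 genes as against 5441, and 8 other replication genes. Library size alone called 28 other replication genes, and 61% of all genes tested. Other mitosis genes called were 48 with no filter and 28 with a mean CPM of at least 1, as against 16. Of all genes, 34.5% of 17746 were called with no filter and 5591 of 11406 with the mean CPM. Without the filter 63 other mitosis genes were tested, as against 24. A mean of 1 CPM can be reached through the Ndrg3 LKO livers alone. The medians were 1.58 (G2/M) and 1.04 (S-phase) with limma on log2(CPM + 1), where the pseudocount compresses low levels. *Pcna* (0.034) turned to -0.048 and -0.051 (limma on log2(CPM + 1) and log2(CPM + 0.1)), -0.0090 (no filter), -0.051 (replicate block), and -0.0071, -0.044, -0.032 and -0.24 without WT replicates 2 and 4 and Ndrg3 LKO replicates 1 and 5 (highest 0.15). *Cdk4* turned to 0.45 (library size alone) and 0.031 (without Ndrg3 LKO replicate 3, lowest -0.16 with a liver left out), and *Cdkn1a* to -0.091, -0.045 and -0.085 (without WT replicates 4 and 5 and Ndrg3 LKO replicate 4, highest 0.44). None of these values was called except *Cdk4* under library size, and the cause was not tested. Of the other values of the named genes, 485 kept direction and call, 18 lost the call (all *Tk1* or *Pold3*) and 6 gained it.

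Both groups carry replicate numbers 1 to 5. Livers that share a number, as deviations from the mean of their group, correlated at -0.357, -0.272, -0.313, -0.176 and 0.0363. No WT liver correlated best with the Ndrg3 LKO liver of its own number. No pairing by number was thus seen, and the labels state none. The litters of single mice are not given, so a pairing by litter was not tested. A replicate block left 4407 genes called, 28 of the 46 genes higher and 1 lower, and in the retinoblastoma, E2F and DREAM family 3 higher and 4 lower, as against 3 and 7. Depth limits the WT side: 9 of the 46 genes had no more than 3 counts in at least 3 WT livers.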
